A study of Mus musculus with 12 samples.

Results

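The 10 genes described here flank Cdkn1a on mouse chromosome 17 and were chosen by name, as genes near the locus of Cdkn1a and the long noncoding RNA lincRNA-p21, with Cdkn1a itself left out. They are Mapk14, Brpf3, Kctd20, Stk38 and Srsf3 on one side of Cdkn1a and Ppil1, Mtch1, Pim1, Tbc1d22b and Rnf8 on the other, in chromosomal order. All 10 were among the 11481 genes listed in either of 2 tables, and all 10 were in both tables. Their rows are named MAPK14, BRPF3, KCTD20, STK38, SFRS3 (the older name of Srsf3), PPIL1, MTCH1, PIM1, TBC1D22B and RNF8. The lowest value of any of them was 12.1 CPM (the reads of a gene scaled to the total of its library), so all 10 lay above the 2 CPM that every listed gene exceeds in wild-type libraries.

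RNA sequencing covered primary mouse embryonic fibroblasts, connective tissue cells taken from embryos, on a hybrid 129/B6 background. The 4 groups had 3 biological replicates each. They were wild type mock (WT mock), lincRNA-p21 knockout mock (KO mock), wild type with doxorubicin (WT doxorubicin) and lincRNA-p21 knockout with doxorubicin (KO doxorubicin). The p-values below measure the spread of these replicates. Those with the replicate number as a block measure the spread that is left after the number is fitted. WT cells are lincRNA-p21+/+, and the labels used here do not say how the knockout allele was made, how many embryos gave the cells or what a replicate number stands for. Doxorubicin is an anthracycline that breaks DNA and activates the transcription factor p53, and the labels give its dose as 0.5 mM for 24 hours, a unit that is in doubt because micromolar doses are more usual. LincRNA-p21 lies between Srsf3 and Cdkn1a in the reference annotation, on the strand opposite to Cdkn1a, and was not analysed here. No check of the genotype labels by the targeted RNA was therefore made.

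The library totals that CPM was scaled to ran from 14327048 to 20511907 reads, with 99.2 to 99.6% of each in the listed genes. A flanking gene had 217 to 5741 reads in a library. The deposited data are labelled noYX, and whether genes of the X and Y chromosomes are absent from them was not tested. The labelled cell type was checked against marker genes. Of 15 fibroblast markers 14 were listed, and their summed level was 51230 to 68756 CPM in the mock libraries and 31660 to 41842 CPM in the doxorubicin libraries. Of 8 markers each, 1 or 2 epithelial, 2 endothelial, 1 blood, 4 neural and 2 skeletal muscle markers were listed. The summed endothelial markers were Kdr and Emcn in the mock table and Kdr and Vwf in the doxorubicin table, with Pecam1 and Cdh5 in neither. These sums lay at 3.95 to 10.6 CPM over the mock libraries and at 29.8 to 38.9 CPM over those given doxorubicin, with no overlap. They share only Kdr, so they are not one measure. The fibroblast sums did not overlap between treatments either, and were lower with doxorubicin. Epithelial, neural and skeletal muscle sums overlapped between mock and doxorubicin libraries. Epithelial markers (Krt18, and Cldn4 in the doxorubicin table) lay at 0.958 to 13.8 and 5.13 to 35.4 CPM. Neural markers lay at 233 to 540 and 425 to 645 CPM, and skeletal muscle markers at 30.9 to 434 and 22.6 to 204 CPM. The part of any of these cell types in the doxorubicin differences was not tested. Mdm2, a p53 target that encodes the ubiquitin ligase of p53, served as the check of the treatment. It was at 252 ± 20.8 CPM (SD, n = 3) in WT mock and 875 ± 107 CPM in WT doxorubicin cells, and at 251 ± 33.7 and 928 ± 3.33 CPM in KO cells.

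The flanking genes do not belong to one pathway. The kinases come first: Mapk14 encodes p38 alpha, a kinase of the stress-activated MAPK cascade, Stk38 encodes NDR1, a kinase of the Hippo-related NDR/LATS family, and Pim1 encodes a kinase without a regulatory domain whose level is set mainly by transcription downstream of JAK-STAT signalling. Srsf3 encodes an SR protein that binds exons and guides splice site choice, and Ppil1 a peptidyl-prolyl isomerase of the spliceosome. Brpf3 encodes a scaffold of a histone acetyltransferase complex with HBO1, and Rnf8 a ubiquitin ligase that marks chromatin around DNA double-strand breaks. Mtch1 encodes an outer membrane protein of mitochondria, Tbc1d22b a TBC domain protein of the kind that acts on Rab GTPases, and Kctd20 a BTB domain protein. Cdkn1a encodes the cyclin-dependent kinase inhibitor p21, which stops the cell cycle after DNA damage under the control of p53. A long noncoding RNA can act in cis, on genes of its own chromosome, or elsewhere in the genome. The comparison of genes beside lincRNA-p21 in WT and KO cells cannot tell these apart, and neither was tested.

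The stretch of 250 bases before a transcription start is shown for the flanking gene that rose after doxorubicin in both genotypes (Pim1, its first annotated start), for the 2 that fell in both (Srsf3 and Ppil1) and, as the reference, for Cdkn1a. Sequences come from RefSeq on GRCm38.p6, are written 5′ to 3′ on the strand of the gene and end at the base before the start. The windows are chr17:29490535-29490784 on the plus strand for Pim1, chr17:29032410-29032659 on the plus strand for Srsf3, chr17:29263972-29264221 on the minus strand for Ppil1 and chr17:29090729-29090978 on the plus strand for the first annotated start of Cdkn1a. Capitals mark a CCAAT box in Srsf3 (on the opposite strand) and Ppil1 and the p53 element in Cdkn1a. No letters of the motifs searched were found in the Pim1 window.
Pim1: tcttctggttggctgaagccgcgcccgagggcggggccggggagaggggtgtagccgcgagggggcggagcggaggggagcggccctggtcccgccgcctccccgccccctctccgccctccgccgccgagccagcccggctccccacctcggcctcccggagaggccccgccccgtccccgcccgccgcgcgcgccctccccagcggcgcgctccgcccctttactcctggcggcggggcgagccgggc
Srsf3: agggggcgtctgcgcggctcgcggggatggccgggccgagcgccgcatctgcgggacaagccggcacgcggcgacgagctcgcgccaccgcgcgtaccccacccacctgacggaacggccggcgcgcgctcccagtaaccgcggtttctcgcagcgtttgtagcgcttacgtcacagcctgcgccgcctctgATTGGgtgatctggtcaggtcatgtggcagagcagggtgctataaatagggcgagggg
Ppil1: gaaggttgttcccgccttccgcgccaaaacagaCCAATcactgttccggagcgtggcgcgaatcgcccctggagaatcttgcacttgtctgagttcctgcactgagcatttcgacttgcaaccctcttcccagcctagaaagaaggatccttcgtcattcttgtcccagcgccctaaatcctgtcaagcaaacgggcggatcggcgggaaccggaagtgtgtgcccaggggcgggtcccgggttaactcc
Cdkn1a: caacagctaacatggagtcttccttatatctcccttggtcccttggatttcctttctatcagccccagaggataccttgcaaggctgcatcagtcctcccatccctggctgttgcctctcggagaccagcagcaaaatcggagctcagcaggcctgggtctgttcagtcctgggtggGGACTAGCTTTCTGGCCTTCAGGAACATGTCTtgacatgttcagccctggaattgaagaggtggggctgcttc

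The motifs were searched on both strands in the 15 windows of the 10 flanking genes and in all 32851 windows of the table. A p53 element, defined as a pair of the decamers that p53 binds up to 13 bases apart, was in 0 of the 15 windows and in 0.0639% of all windows. The window of the first annotated start of Cdkn1a held one of 32 bases beginning 73 bases before the start. That of its second annotated start held none. A single such decamer was in 1 of 15 windows, the second annotated start of Pim1, against 7.13% of all windows. The GAS element TTCNNNGAA, the site that STAT factors bind, was in 1 window, the second of Mapk14, against 7.02%. The CCAAT box was in 5 of 15 windows (Mapk14, Srsf3, Ppil1, Tbc1d22b and Rnf8), against 33.8%, and began 58 bases before the start in Srsf3 and 217 bases before it in Ppil1. TTTGAA, the CHR element of cell cycle promoters, was in 4 windows (Kctd20, Stk38, Pim1 and Rnf8), against 16% of all. In Rnf8 CCAAT began 209 and TTTGAA 205 bases before the start, so these share a base, and the decamers of Cdkn1a lie inside its p53 element. A match of letters is a description of the window and shows no binding.

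The flanking genes were expressed at very different levels. On a scale of CPM per kilobase of annotated exon, WT mock cells had Mtch1 at 53.4, Mapk14 at 21.2, Srsf3 at 18.0, Kctd20 at 14.3, Ppil1 at 11.4, Pim1 at 9.64, Stk38 at 7.54, Brpf3 at 5.51, Tbc1d22b at 4.73 and Rnf8 at 2.05 (means, n = 3). Cdkn1a on that scale was at 159. In this order the ranges over the 3 libraries overlapped between Ppil1 and Pim1, between Pim1 and Stk38 and between Brpf3 and Tbc1d22b, and other neighbours in the order did not overlap. The 3 WT mock libraries put Pim1 anywhere from 5.52 to 11.9, the widest range of the 10 relative to its level. After doxorubicin Pim1 stood at 16.3 in WT cells, above Kctd20 at 14.0 and Srsf3 at 13.1, with the ranges of Pim1 and Kctd20 and those of Kctd20 and Srsf3 overlapping. On this scale Mtch1 was first and Rnf8 last in all 4 groups. In CPM, without division by exon length, the lowest mean in all 4 groups was that of Tbc1d22b.

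**Figure D1:**
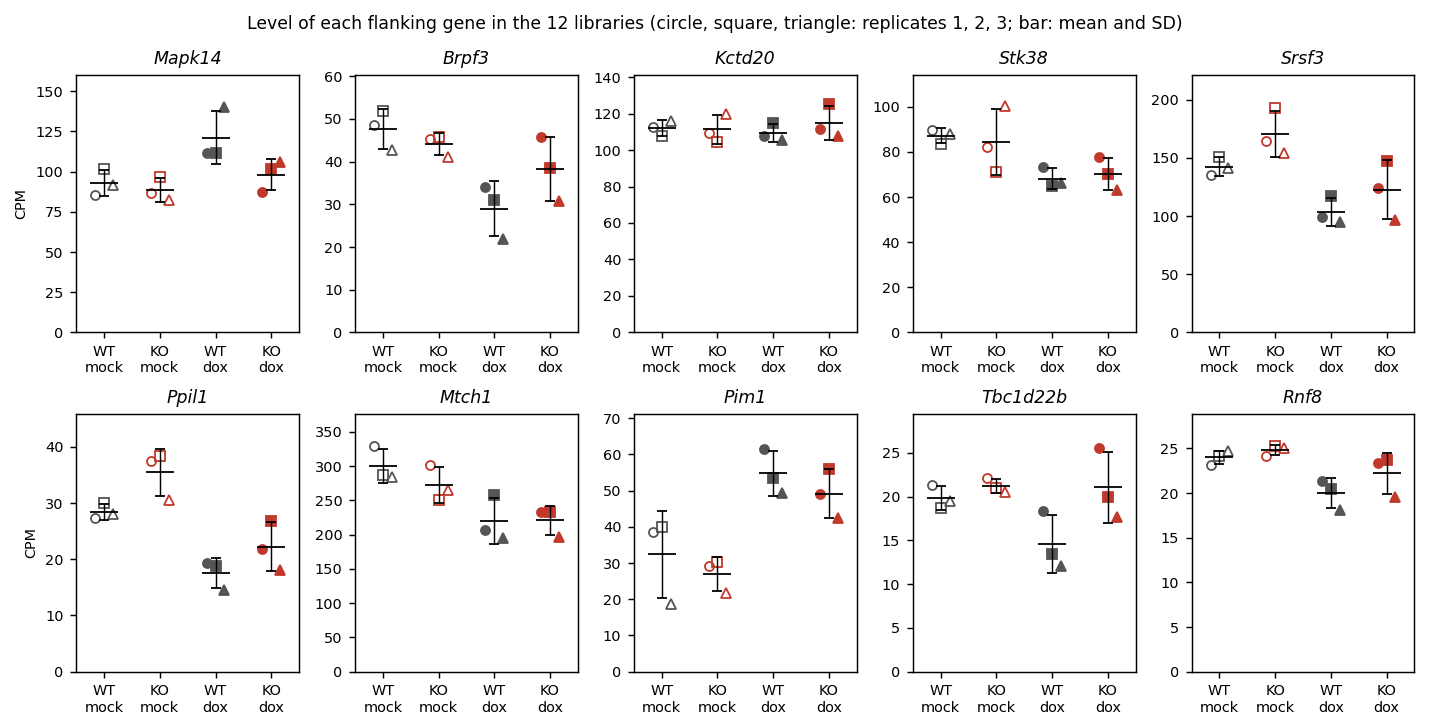
Level of each of the 10 flanking genes in CPM (linear axis from 0) in WT (grey) and KO (red) libraries, with open symbols for mock and filled symbols for doxorubicin, a symbol shape for each replicate number, and bars for the mean and SD of 3 libraries. Pim1 is higher and Srsf3 and Ppil1 are lower in every doxorubicin library than in every mock library of the same genotype.

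Doxorubicin was associated with a rise of 2 flanking genes and a fall of 5 in WT cells. Pim1 and Mapk14 rose, and Brpf3, Ppil1, Srsf3, Mtch1 and Stk38 fell, each past an adjusted p of 0.05 (limma on log2(CPM + 1), Benjamini-Hochberg over 10292 genes). That is 70% of the flanking genes, where 47.3% of all genes tested passed in either direction. In KO cells Pim1 rose and Ppil1 and Srsf3 fell, which is 30% of the flanking genes against 34.5% of all genes. The median log2 difference of the 10 was -0.40 in WT and -0.19 in KO cells, beside 0.01 and 0.04 for all genes. Cdkn1a, between them on the chromosome, rose by 1.15 in WT and 1.78 in KO cells (SE 0.129 each, limma adjusted p 6.93e-05 and 1.99e-05).

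These shares moved with the fit, the scaling and the libraries kept. With WT mock replicate 3 or WT doxorubicin replicate 3 left out, 3 flanking genes were called in WT cells. Of all 10292 genes 4082 and 3870 were then called, a larger share than among the flanking genes. With the replicate number as a block, which the pairing of same-numbered libraries allows, 2 flanking genes rose and 7 fell in WT cells, 90% against 63.7% of all genes. In KO cells 1 rose and 3 fell with the block, 40% against 53.7%. Centring each library on its median moved the median of all genes in WT cells from 0.01 to -0.10. It also moved the share of calls that were higher from 54.8 to 42.8%. Then 1 flanking gene rose and 7 fell, where 21.4% of all genes rose and 28.6% fell. Quantile normalization gave 45.4% higher calls and again 1 and 7, where 22.4% of all genes rose and 26.9% fell. In KO cells the share of higher calls was 57.8% as deposited, 49.8% after quantile normalization and 45.2% after median centring. Under each of these 1 flanking gene was higher, and 2, 2 and 3 were lower. Of all genes 19.9, 17.8 and 16.2% were higher and 14.6, 18 and 19.7% lower. RNA levels here are relative to the total of a library, and in bulk samples fewer cells of a type and less RNA per cell cannot be told apart.

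Among the kinases, Pim1 had the largest rise. Its values were 38.5, 40.1 and 18.6 CPM in the WT mock libraries 1 to 3 and 61.4, 53.4 and 49.4 CPM in WT doxorubicin. KO mock libraries had 29.2, 30.2 and 21.7 CPM and KO doxorubicin libraries 49.0, 56.1 and 42.5 CPM. Every doxorubicin library lay above every mock library in both genotypes, and WT mock replicate 3 was the lowest of all 12. The log2 difference was 0.81 in WT (SE 0.255, limma adjusted p 0.0224) and 0.85 in KO cells (SE 0.255, adjusted p 0.0247). Without WT mock replicate 3 the WT difference was 0.46, and without WT doxorubicin replicate 1 it was 0.73, neither of them called. In KO cells the call was lost without KO mock replicate 3 (0.70), KO doxorubicin replicate 1 (0.84) or KO doxorubicin replicate 2 (0.75). Cd68, the 1 listed blood marker and a gene of macrophages and other phagocytes, moved the same way. Its WT libraries ranged over 2.84 to 29.2 CPM in mock and 49.2 to 126 CPM with doxorubicin, and its KO libraries over 2.42 to 58.3 and 45.4 to 112 CPM. The defining blood marker Ptprc was not listed. The part of such cells in the Pim1 values was not tested.

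Mapk14 was at 85.6, 101 and 91.5 CPM in WT mock and at 112, 111 and 140 CPM in WT doxorubicin libraries. KO mock libraries had 86.6, 96.6 and 82.6 CPM and KO doxorubicin libraries 87.1, 102 and 106 CPM. The WT groups did not overlap, with WT doxorubicin replicate 3 the highest, and the KO groups did. In WT cells Mapk14 rose by 0.38 on the log2 scale (SE 0.123, limma adjusted p 0.0267), and in KO cells the difference was 0.14 (adjusted p 0.392). The WT call depended on the scaling: the difference was 0.23 (adjusted p 0.128) after quantile normalization and 0.26 (adjusted p 0.113) after median centring. Leaving out replicate 1 (0.32) or 3 (0.37) of WT mock, or replicate 3 of WT doxorubicin (0.27), also ended it.

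Stk38 was at 83.6 to 89.9 CPM in WT mock and 64.8 to 73.4 CPM in WT doxorubicin libraries, and these did not overlap. In KO cells it was at 71.2 to 100.2 CPM in mock and 63.3 to 77.6 CPM in doxorubicin libraries, which overlapped. The log2 difference was -0.35 in WT (SE 0.128, limma adjusted p 0.0403) and -0.25 in KO cells (adjusted p 0.147). With each of the 12 libraries left out in turn, the WT difference stayed between -0.41 and -0.32 and its adjusted p ran from 0.0215 to 0.104, and 7 of the 12 lost the call. Those 7 were the 3 WT mock libraries, KO mock replicate 1, WT doxorubicin replicates 2 and 3 and KO doxorubicin replicate 2.

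Both genes of RNA splicing fell in both genotypes. Ppil1 was at 27.4, 30.1 and 28.0 CPM in WT mock and 19.3, 18.9 and 14.5 CPM in WT doxorubicin libraries. In KO cells it was at 37.4, 38.3 and 30.6 CPM in mock and 21.8, 26.8 and 18.1 CPM in doxorubicin libraries. The groups did not overlap in either genotype, and every KO mock library lay above every other library. Ppil1 fell by 0.68 in WT (SE 0.165, limma adjusted p 0.00606) and by 0.66 in KO cells (SE 0.165, adjusted p 0.0102). The call held in both genotypes with each library left out, with adjusted p up to 0.0269 in WT and 0.0442 in KO.

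Srsf3 was at 135, 151 and 141 CPM in WT mock and 98.9, 117 and 94.5 CPM in WT doxorubicin libraries. In KO cells it was at 165, 193 and 154 CPM in mock and 124, 147 and 96.3 CPM in doxorubicin libraries. Again the treated and mock groups did not overlap in either genotype. Srsf3 fell by 0.46 in WT (SE 0.152, limma adjusted p 0.0275) and by 0.49 in KO cells (SE 0.152, adjusted p 0.0285). Leaving out WT mock replicate 2 or 3, or WT doxorubicin replicate 1 or 3, took the WT adjusted p past 0.05, up to 0.0933, with differences from -0.55 to -0.40 over all 12 libraries. KO mock replicate 1 or 2 and KO doxorubicin replicate 1 or 3 did so for KO, up to 0.11, with differences from -0.63 to -0.32.

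Of the chromatin genes, Brpf3 fell in WT cells. It was at 48.5, 52.0 and 42.7 CPM in WT mock and 34.2, 31.0 and 21.8 CPM in WT doxorubicin libraries. KO mock libraries had 45.3, 45.9 and 41.2 CPM and KO doxorubicin libraries 45.8, 38.5 and 30.7 CPM. The WT groups were well apart, while KO doxorubicin replicate 1 lay within the KO mock range. The log2 difference was -0.72 in WT (SE 0.180, limma adjusted p 0.00698) and -0.22 in KO cells (SE 0.180, adjusted p 0.383). The WT call held with each library left out, with adjusted p up to 0.0289.

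Rnf8 varied within narrow ranges. WT libraries had 23.2 to 24.7 CPM in mock and 18.1 to 21.4 CPM with doxorubicin, and KO libraries 24.1 to 25.3 and 19.6 to 23.7 CPM. The doxorubicin values lay below the mock values in both genotypes without overlap. The log2 difference was -0.25 in WT (limma adjusted p 0.0946) and -0.16 in KO cells (adjusted p 0.319). In WT cells it passed with the block (adjusted p 0.0483), after quantile normalization (-0.32, adjusted p 0.0314) and after median centring (-0.36, adjusted p 0.0164). Rnf8 shares exon sequence with a read-through transcript on its own strand, so part of its reads may be counted elsewhere.

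Mtch1 was at 329, 288 and 284 CPM in WT mock and 207, 259 and 195 CPM in WT doxorubicin libraries. In KO cells it was at 251 to 302 CPM in mock and 197 to 234 CPM in doxorubicin libraries, and neither pair of groups overlapped. Mtch1 fell by 0.45 in WT cells (SE 0.128, limma adjusted p 0.0130). In KO cells the difference was -0.30 (adjusted p 0.0866), and it passed with the block (adjusted p 0.0334) and after median centring (-0.39, adjusted p 0.0296). The WT call was lost without WT mock replicate 1 (-0.39) or WT doxorubicin replicate 3 (-0.37).

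Tbc1d22b was at 21.4, 18.7 and 19.5 CPM in WT mock and 18.3, 13.4 and 12.1 CPM in WT doxorubicin libraries, which did not overlap. KO mock libraries had 22.1, 21.0 and 20.6 CPM and KO doxorubicin libraries 25.6, 19.99 and 17.7 CPM, which did. The log2 difference was -0.44 in WT (SE 0.171, limma adjusted p 0.0546) and -0.02 in KO cells (adjusted p 0.928). In WT cells it passed with the block (adjusted p 0.00754), after quantile normalization (-0.47, adjusted p 0.0203) and after median centring (-0.55, adjusted p 0.0147). It also passed without WT doxorubicin replicate 1 (-0.60) or KO doxorubicin replicate 1 (-0.44).

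Kctd20 was the flattest of the 10. Its 12 values lay between 105 and 125 CPM, with group means of 112 ± 4.39 in WT mock, 111 ± 7.88 in KO mock, 109 ± 4.95 in WT doxorubicin and 115 ± 9.24 CPM in KO doxorubicin cells (SD, n = 3 each). The log2 difference after doxorubicin was -0.04 in WT, with a 95% interval from -0.24 to 0.16, and 0.04 in KO cells, from -0.16 to 0.24. In KO cells it turned to -0.04 after quantile normalization or median centring. In both genotypes the mock and doxorubicin groups overlapped. Over the 10 genes, groups did not overlap for 9 in WT cells, where 54.8% of all genes tested separated in either direction, and for 5 in KO cells (Pim1, Srsf3, Ppil1, Mtch1 and Rnf8), where 48.6% did.

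**Figure D2:**
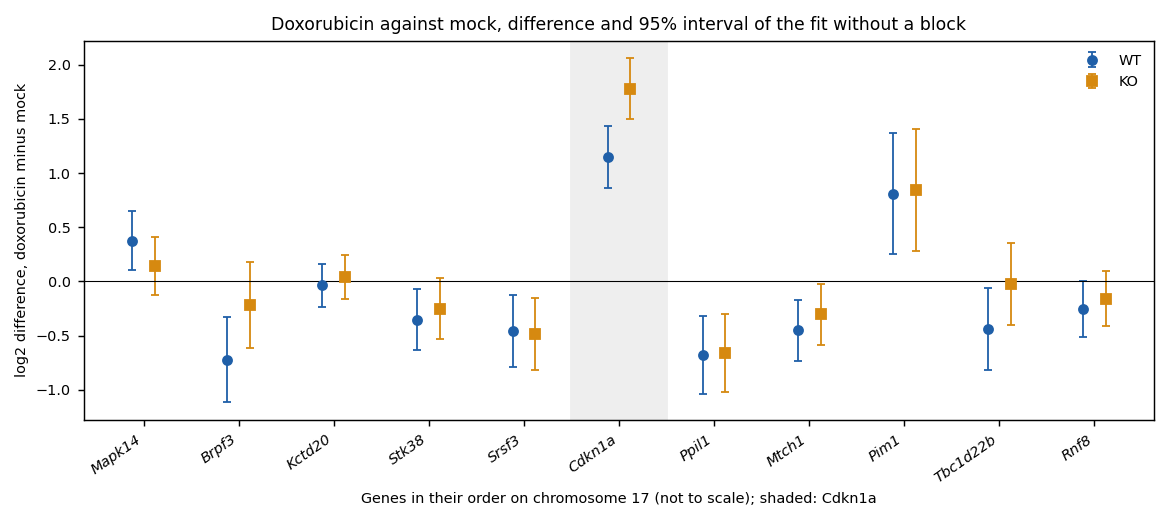
Log2 difference of doxorubicin minus mock for the 10 flanking genes and Cdkn1a (shaded) in chromosomal order, in WT (circles) and KO (squares) cells, with the 95% interval of the limma fit without a block. Cdkn1a and Pim1 lie above 0 and Srsf3 and Ppil1 below 0 in both genotypes, and for Brpf3 the WT interval ends below 0 and the KO interval crosses it.

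Loss of lincRNA-p21 in mock cells came with no called change of a flanking gene. In limma without the block 0 of 10 passed, and 0% of all 10648 genes did, with 440 of them (4.13%) and 1 flanking gene, Ppil1, at an unadjusted p under 0.05. With the block 0 of 10 passed, against 0.92% of all genes, and 3 flanking genes had an unadjusted p under 0.05, against 23.1% of all genes. Cdkn1a was at 578, 506 and 613 CPM in WT mock and 304, 283 and 357 CPM in KO mock libraries, a log2 difference of -0.85 (SE 0.123) that passed only with the block (limma adjusted p 0.395 without it and 0.0223 with it). The median log2 difference of the 10 was -0.03, with 4 above 0 and 6 below, beside 0.06 for all genes.

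The 2 flanking genes with groups that did not overlap in mock cells were Srsf3 and Ppil1, one on each side of Cdkn1a, and in both the KO values were the higher. Non-overlap with KO higher held for 8.25% of all genes. Srsf3 is the protein-coding gene annotated next to lincRNA-p21 on the side away from Cdkn1a, and its KO mock values of 154 to 193 CPM lay above the WT mock values of 135 to 151 CPM. The log2 difference was 0.25 (SE 0.106, limma p 0.0514 before and 0.978 after adjustment, 0.105 adjusted with the block). For Ppil1 the KO mock values of 30.6 to 38.3 CPM lay above 27.4 to 30.1 CPM, with a difference of 0.30 (SE 0.117, limma p 0.0393 before and 0.978 after adjustment, 0.127 adjusted with the block). Between same-numbered libraries the KO library was higher in 3 of 3 pairs for Srsf3 (0.28, 0.35 and 0.13) and Ppil1 (0.44, 0.34 and 0.12). The same held for Tbc1d22b (0.05, 0.16 and 0.07), Rnf8 (0.06, 0.07 and 0.02) and 35.3% of all genes. For Brpf3 and Mtch1 the KO library was lower in 3 of 3 pairs.

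The other 8 differed between KO and WT mock cells by -0.19 to 0.09 on the log2 scale. Mtch1 was at -0.14 (limma adjusted p 0.978), Brpf3 at -0.11 (adjusted p 0.978), Mapk14 at -0.07 (adjusted p 0.987) and Tbc1d22b at 0.09. Rnf8 was at 0.05, which turned to -0.02 after quantile normalization and -0.01 after median centring. Stk38 was at -0.06 and Kctd20 at -0.01, with overlapping groups. Pim1 had the widest interval, -0.93 to 0.55 around -0.19, with WT mock replicate 3 at 18.6 CPM under all 3 KO mock libraries. With the block, leaving out replicate number 3 brought 4 flanking genes past the threshold: Srsf3 (0.32, limma adjusted p 0.00510), Ppil1 (0.39, 0.0110), Mtch1 (-0.16, 0.0427) and Pim1 (-0.39, 0.00913). That fit called 2438 genes in all, and leaving out number 1 or 2 brought no flanking gene past it.

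After doxorubicin the genotype difference called flanking genes only in the blocked fit. Without the block 0 of 10 and 0% of 11125 genes passed in limma, with 1246 genes (11.2%) and 0 flanking genes at an unadjusted p under 0.05. With the block Brpf3 and Tbc1d22b were higher and Mapk14 was lower in KO cells, which is 30% of the flanking genes against 25.3% of all genes (11.8% higher and 13.6% lower). Cdkn1a was at 1440, 1091 and 1248 CPM in WT doxorubicin and 1059, 1072 and 1102 CPM in KO doxorubicin libraries, a difference of -0.22 (limma adjusted p 0.513, with the block 0.143). The median of the 10 was 0.11, with 8 above 0 and 2 below, beside 0.03 for all genes.

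Tbc1d22b had the largest genotype difference, with KO doxorubicin libraries at 25.6, 19.99 and 17.7 CPM and WT at 18.3, 13.4 and 12.1 CPM. The groups overlapped by the lowest KO library, replicate 3, which lay under the highest WT library, replicate 1. The KO library was higher in each pair, by 0.46, 0.54 and 0.51, and the log2 difference was 0.51 (SE 0.224, 95% interval -0.01 to 1.03, limma adjusted p 0.443, with the block 0.0190). Brpf3 had overlapping groups as well and pair differences of 0.41, 0.30 and 0.48, with a log2 difference of 0.40 (SE 0.223, adjusted p 0.464, with the block 0.0250). All 3 pairs were higher in KO also for Srsf3, Ppil1, Rnf8 and Kctd20, and for 34.2% of all genes. Stk38, Mtch1 and Pim1 had pairs of both signs, and Mapk14 had all 3 lower. Tbc1d22b shares exon sequence with antisense genes and a same-strand transcript, and Brpf3, Kctd20, Ppil1 and Pim1 each with a transcript of the opposite strand. The kit keeps strand, per the labels, but the strand setting of the counting is not given in the sources used here, so reads of these partners cannot be told apart.

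Mapk14 was the one flanking gene whose WT and KO doxorubicin libraries did not overlap, at 111 to 140 CPM in WT and 87.1 to 106 CPM in KO. Non-overlap with KO lower held for 6.64% of all genes. Its log2 difference was -0.30 (SE 0.142, limma adjusted p 0.444, with the block 0.0375), with pair differences of -0.36, -0.13 and -0.40. The 3 blocked calls were the only ones among the 10, and all 3 were lost when replicate number 1 or 3 was left out and kept without number 2. Leaving a number out gave adjusted p from 0.0136 to 0.200 for Mapk14, 0.0247 to 0.131 for Brpf3 and 0.0340 to 0.0805 for Tbc1d22b.

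Of the other 7, Ppil1 was at 0.32 (limma adjusted p 0.506, with the block 0.0810) and Srsf3 at 0.23 (adjusted p 0.560, with the block 0.0908), on the same side of 0 as in mock cells. Rnf8 was at 0.14, Kctd20 at 0.07, Stk38 at 0.04 and Mtch1 at 0.01, which turned to -0.02 after median centring. Pim1 was at -0.16 (adjusted p 0.641). None of these 7 passed in either fit.

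**Figure D3:**
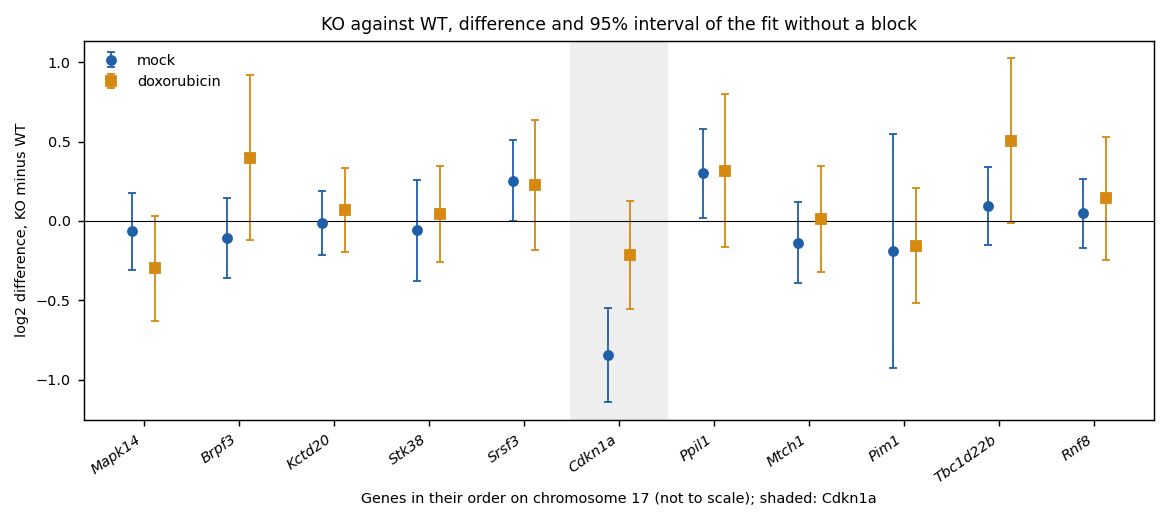
Log2 difference of KO minus WT for the 10 flanking genes and Cdkn1a (shaded) in chromosomal order, in mock (circles) and doxorubicin (squares) cells, with the 95% interval of the limma fit without a block. The flanking genes lie between -0.30 and 0.51, and Cdkn1a in mock cells lies at -0.85.

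Whether the doxorubicin response differed by genotype was tested as an interaction. In limma 0 of 10 flanking genes passed, with or without the block, and 0% of all 10292 genes did. At an unadjusted p under 0.05 there were 468 genes (4.55%) and 0 flanking genes without the block, and 1610 genes (15.6%) and 2 flanking genes with it. Brpf3 had the largest interaction of the 10, 0.51 on the log2 scale (SE 0.255, adjusted p 0.922, with the block 0.232), followed by Tbc1d22b at 0.41 (SE 0.242, adjusted p 0.922, with the block 0.288) and Mapk14 at -0.23 (adjusted p 0.922). The calls of Brpf3, Mapk14, Mtch1 and Stk38 in WT and not in KO cells are therefore not shown to differ between genotypes. Nor is the rise of Cdkn1a, whose interaction was 0.63 (SE 0.182, limma adjusted p 0.922, with the block 0.196). For Srsf3 the interaction was -0.03 as deposited, 0.06 after quantile normalization and 8.74e-05 after median centring.

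The wider neighbourhood was the 20 annotated protein-coding genes on each side of Cdkn1a. Beside the 10 flanking genes it holds 30 others, of which 13 were in both tables. Doxorubicin was followed by a rise of 3 and a fall of 5 of the 13 in WT cells and a rise of 2 and a fall of 3 in KO cells, where 47.3% (WT) and 34.5% (KO) of all genes were called in either direction. Mapk13, the p38 delta kinase gene beside Mapk14, rose from 5.19 ± 0.472 to 18.9 ± 3.29 CPM in WT (SD, n = 3, log2 difference 1.67) and from 9.09 to 23.2 CPM in KO cells (1.27). Fkbp5, which encodes a cochaperone of the glucocorticoid receptor, fell from 55.9 ± 6.45 to 20.5 ± 1.39 CPM in WT (-1.40) and from 56.9 to 19.0 CPM in KO cells (-1.53). Mdga1, a cell surface protein gene, rose by 1.67 in WT cells and Glo1, the glyoxalase gene, by 0.68, and Rpl10a, a ribosomal protein gene, fell by 0.70. In KO cells Cmtr1, an mRNA cap methyltransferase gene, rose by 0.61, and Rpl10a and Srpk1, a kinase gene of SR proteins, fell by 0.45 and 0.37. The call of Cmtr1 was lost with median centring (0.53, limma adjusted p 0.0689). Srpk1 also fell in WT cells (-0.47, limma adjusted p 0.00179), and Cmtr1 was at 0.49 there (adjusted p 0.0716, with the block 0.00515). Mdga1 in KO cells was at 0.76 (limma adjusted p 0.118, with the block 0.0141) and Glo1 at 0.32 (0.169 and 0.0667). As an interaction 0 of the 13 passed with or without the block, as for all genes. With the block 4 of the 13 rose and 5 fell in KO cells, beside 53.7% of all genes called in either direction. In KO cells 2 rose and 5 fell after quantile normalization, where 17.8% of all genes rose and 18% fell. After median centring 1 rose and 5 fell, where 16.2% of all genes rose and 19.7% fell.

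Between genotypes 0 of the 13 passed in mock cells with or without the block, nor did any without it after doxorubicin. Of the 13, Mapk13 differed most in mock cells, at 9.09 ± 2.21 CPM in KO and 5.19 ± 0.472 CPM in WT (SD, n = 3). Its log2 difference was 0.68 (SE 0.191, limma adjusted p 0.978, with the block 0.0825). With the block Rpl10a was higher in KO doxorubicin cells (0.37, limma adjusted p 0.0133), and Mdga1 (-1.05, adjusted p 0.00440) and Glo1 (-0.34, adjusted p 0.0314) were lower, so that 3 of the 13 were called, where that fit called 25.3% of all genes.

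**Figure D4:**
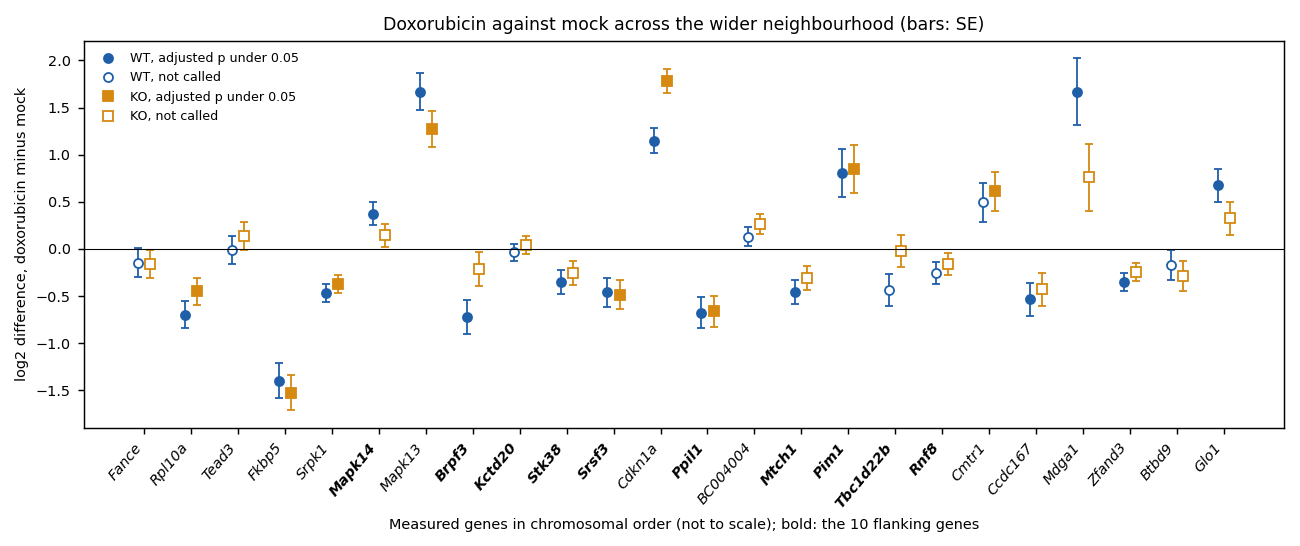
Log2 difference of doxorubicin minus mock, with its SE, for the measured genes of the wider neighbourhood, the 10 flanking genes (bold) and Cdkn1a in chromosomal order, in WT (circles) and KO (squares) cells, filled where the limma adjusted p is under 0.05. Genes that rose and genes that fell stand side by side on both sides of Cdkn1a, from Fkbp5 at -1.53 to Cdkn1a at 1.78 in KO cells.

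Genes that work with the flanking genes were followed in lists named after the pathways. Of 22 measured genes of the p38 MAPK pathway 9 rose and 3 fell after doxorubicin in each genotype, among them Mapkapk3, a kinase that p38 activates (1.88 in WT and 1.60 in KO), and Dusp10, a phosphatase that turns p38 off (1.77 and 1.62). Of the 12 measured paralogs of the flanking genes 3 rose and 5 fell in WT and 3 rose and 3 fell in KO cells. The p38 beta and gamma genes Mapk11 (-1.33 in WT and -1.02 in KO) and Mapk12 (-1.29 and -1.24) fell. Mapk13 rose in both genotypes (1.67 and 1.27). Mapk14 rose in WT cells, a call that was lost with either scaling. Of 16 genes of the NDR/LATS kinase pathway around Stk38, 4 rose and 2 fell in WT and 5 rose and 2 fell in KO cells. Mob1b, a coactivator of these kinases, rose (1.13 and 0.87) and Stk3, the MST2 kinase gene, fell (-1.06 and -0.69). With the block 7 rose and 3 fell in WT cells. With either scaling 4 rose and 4 fell in WT cells, and in KO cells 3 rose and 2 fell with quantile normalization and 3 rose and 3 fell with median centring.

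Of the 19 SR protein genes and their kinases 3 rose and 9 fell in WT cells and 3 rose and 8 fell in KO cells. Srsf1 (-0.88 in WT and -0.73 in KO) and Srsf2 (-0.63 and -0.74) fell as Srsf3 did, and Clk3, a kinase of SR proteins, rose in WT cells (0.78). The median of this list was -0.20 in WT and -0.18 in KO cells. After quantile normalization or median centring 3 rose and 10 fell in WT and 1 rose and 10 fell in KO cells. With the block 7 rose and 10 fell in WT and 4 rose and 9 fell in KO cells. Of the 19 genes of spliceosomal cyclophilins and the Prp19 complex, the setting in which Ppil1 works, 6 rose and 2 fell in WT, and 6 rose and 1 fell in KO cells. Their median was 0.23 in WT and 0.04 in KO cells, and in KO cells it turned to -0.04 with quantile normalization and -0.05 with median centring. Aqr (0.95), Xab2 (0.90) and Ppil3 (0.90) had the largest changes in WT cells, and Ppih fell in KO cells (-0.71).

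Of 19 JAK-STAT targets and PIM family genes, 6 rose and 2 fell in WT, and 4 rose and 0 fell in KO cells. Cish, a feedback inhibitor of cytokine signalling, rose in WT (1.43), Stat5a fell in WT (-1.50), and Bcl2l1, which encodes the survival protein BCL-XL, rose in KO cells (1.05). These counts depended on the fit. With the block 6 rose and 7 fell in WT and 7 rose and 7 fell in KO cells, and with median centring 4 rose and 5 fell in WT and 2 rose and 4 fell in KO cells. Of 21 genes of the RNF8 double-strand break pathway, 1 rose and 5 fell in WT, and 1 rose and 6 fell in KO cells. Brca1 fell (-1.35 and -2.03) and so did Mdc1 (-0.73 and -0.70), the adaptor that recruits RNF8 to breaks. With the block 4 rose and 9 fell in WT and 2 rose and 10 fell in KO cells, and with median centring 1 rose and 9 fell in each. Of 10 genes of the MOZ/MORF and HBO1 acetyltransferase complexes, 1 rose and 1 fell in each genotype, Brpf1 (0.68 and 0.53), a paralog of Brpf3, and Ing5 (-0.86 and -0.69), a subunit of these complexes. Of 26 p53 targets 20 rose and 0 fell in each genotype, with medians of 0.83 in WT and 0.88 in KO cells. Unless stated otherwise these calls are of the limma fit without a block at an adjusted p of 0.05, under which 25.9% of all genes rose and 21.4% fell in WT and 19.9% rose and 14.6% fell in KO cells. For the counts with the block, 33.6% of all genes rose and 30.1% fell in WT and 29.6% rose and 24% fell in KO cells. With quantile normalization 22.4% of all genes rose and 26.9% fell in WT and 17.8% rose and 18% fell in KO cells, and with median centring 21.4% rose and 28.6% fell in WT and 16.2% rose and 19.7% fell in KO cells.

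Between genotypes no gene of these lists passed without the block in either treatment, as for all genes. With the block the largest differences after doxorubicin in KO cells were of Stat5a (1.08, limma adjusted p 0.00762), Cish (-0.94, 0.00523) and Fdxr, a p53 target of mitochondrial electron transfer (-0.97, 0.00440). In that fit, of 23 p38 pathway genes measured after doxorubicin 2 were higher and 4 lower. Of 19 SR protein list genes 3 were higher and 1 lower, Srsf1 among the higher (0.40, limma adjusted p 0.0137). The same fit called 11.8% of all genes higher and 13.6% lower.

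Likeness of pattern was measured as Pearson's r of log2(CPM + 1) over the 12 libraries with each of the 10291 other genes. The libraries share treatment groups and replicate numbers, so the values are a description. The gene most like Srsf3 was Nudt21, a subunit of the pre-mRNA cleavage factor (r 0.991), followed by Rps27a (0.981). Nudt21 was also the most like Ppil1 (0.977), with Cdc27 next (0.977). For Brpf3 these were Rpp21 (0.987) and Mier2 (0.974), for Rnf8 Cstf1 (0.987) and Seh1l (0.979), for Tbc1d22b Dnajc19 (0.970) and Akr1e1 (0.965), and for Pim1 Irf5 (0.967) and Pstpip1 (0.961). Mapk14 was nearest to Ddb1 (0.958) and Mdga1 (0.947), Mtch1 to Pofut2 (0.954) and Map3k10 (0.950), and Stk38 to Adamtsl5 (0.952) and 2210021J22Rik (0.936). Kctd20 had the weakest likeness, to Snn (0.811) and Ttc17 (0.785). No flanking gene was among the 2 genes most like another.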

How the data were processed

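RNA was measured in 12 libraries of mouse embryonic fibroblasts, in 4 groups of 3. The authors deposited CPM per gene in 2 tables, mock and doxorubicin, each with both genotypes. Tools named in the submitters' processing notes are HTSeq, edgeR and TopHat2 2.0.6, with the assembly NCBIM37 and no roles given. CPM values were whole multiples of 1 read of a library total, within 0.001 of a read, and these totals gave the depth.

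Differences were fitted with limma 3.58.1 in R 4.3.3 (lmFit, eBayes with trend) on log2(CPM + 1), which understates changes of low genes. The genotypes were compared inside a table, over 10648 (mock) and 11125 (doxorubicin) genes. Doxorubicin against mock and the interaction used all 12 libraries and the 10292 genes of both tables. Calls are at a Benjamini-Hochberg adjusted p of 0.05 over all genes tested. Requiring a mean CPM of 1 or more took out 0 genes. The listed genes exceed 2 CPM in every WT library, and 164 mock and 313 doxorubicin genes have a KO library at or under it.

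Same-numbered libraries deviated together from their group means (r across genes 0.669 to 0.855 between genotypes and 0.394 to 0.728 between treatments). The pairing comes from the labels' numbers and this check, and the block fit is given where it changes a call. Of the row names, 9833 matched RefSeq symbols (GRCm38.p6) and 1215 synonyms, and 433 did not. Exon lengths are from GENCODE on GRCm38. Coordinates are given for the RefSeq promoter windows alone, on GRCm38.p6, since the build of the tables may differ. Named were all flanking genes, Cdkn1a, Mdm2, up to 5 called neighbours and 3 genes per list and comparison by size, and the 2 most alike genes. The genes and lists were chosen with earlier results of these data known. Alternatives were the pseudocount, filters, scalings, the block and leaving out libraries.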

Additional observations from a re-analysis of the deposited data

Results flagged for a closer look

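Brpf3, the acetyltransferase scaffold gene, lay lower in the KO library of all 3 same-numbered pairs in mock cells (log2 differences -0.10, -0.18 and -0.05) and higher in all 3 after doxorubicin (0.41, 0.30 and 0.48). Of the 10292 genes of both tables, 228 (2.22%) had this pattern and 635 (6.17%) had the opposite one. Neither difference passed in limma without the block (adjusted p 0.978 in mock and 0.464 after doxorubicin), and with the block the adjusted p was 0.313 and 0.0250. The difference between these differences was 0.51 (SE 0.255) and did not pass in limma's interaction test over all genes (adjusted p 0.922, with the replicate block 0.232).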

How the results depend on the processing

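Most values held their direction under another pseudocount, other filters on low values, other scalings, the block and left-out libraries. The replicate block raised the genes called from 0 to 98 between genotypes in mock cells, from 0 to 2820 after doxorubicin, and from 3552 to 5524 for doxorubicin in KO cells, and the flanking genes called between genotypes after doxorubicin from 0 to 3. With the block and replicate number 1, 2 or 3 left out, the mock comparison called 4, 0 and 2438 genes and 0, 0 and 4 flanking genes, and the doxorubicin comparison called 692, 2590 and 1560 genes and 0, 3 and 0 flanking genes. With a single library left out, the flanking genes called for doxorubicin in WT cells ran from 3 to 8. Leaving out WT mock replicate 3 gave 3, where 4082 of all 10292 genes were called. Leaving out WT doxorubicin replicate 3 also gave 3, where 3870 of all genes were called. In both of these fits the share of flanking genes called was below that of all genes. Leaving out WT mock replicate 1 gave 4, where 4072 of all genes were called, and leaving out KO doxorubicin replicate 1 gave 8, where 4704 were. In KO cells the flanking genes called ran from 1 (without KO doxorubicin replicate 1, where 3310 of all genes were called) to 3. The block changed no flanking call other than those given beside the results. Some small differences turned sign, and the cause was not tested. Rnf8 between genotypes in mock cells was at -0.015 with quantile normalization and -0.014 with median centring, Mtch1 after doxorubicin at -0.017 with median centring, Kctd20 for doxorubicin in KO cells at -0.036 and -0.042, and the interaction of Srsf3 at 0.055 and 8.74e-05. With single libraries left out, the genotype difference in mock cells ran from -0.066 to 0.032 for Kctd20 and from -0.19 to 0.057 for Stk38, and after doxorubicin from -0.030 to 0.12 for Stk38 and from -0.069 to 0.13 for Mtch1. The doxorubicin difference ran in KO cells from -0.021 to 0.097 for Kctd20 and from -0.17 to 0.089 for Tbc1d22b. The interaction ran from -0.014 to 0.23 for Stk38, -0.17 to 0.14 for Srsf3, -0.12 to 0.15 for Ppil1 and -0.15 to 0.38 for Pim1. With the block and a number left out, Kctd20 in mock cells turned to 0.0040 (number 1) and 0.0017 (number 2), Stk38 there to 0.028 (number 2) and Mtch1 after doxorubicin to -0.067 (number 1). In the same fits the doxorubicin difference of Kctd20 turned to 0.013 in WT (number 3) and -0.065 in KO cells (number 2), that of Tbc1d22b to 0.067 in KO cells (number 3), and the interaction to -0.018 for Stk38, -0.048 for Ppil1 and -0.18 for Pim1 (number 2), 0.010 for Srsf3 and -0.064 for Ppil1 (number 3).

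A count test on reads was planned and was not run, and the tests kept to CPM, the deposited unit. The listed genes were selected on WT levels, which leaves genes low in WT and higher in KO cells out of the background shares. The lowest flanking value rests on 217 reads of a library.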
